A study of Macaca fascicularis and Mus musculus with 492 samples.

Results

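Mouse epiblast-like cells (EpiLCs) were compared with the embryonic stem cells (ESCs) they are derived from, cell by cell and across all genes. The comparison took the 12 cells labelled EpiLC and the 10 cells labelled as ESCs in 2i and LIF, 22 of the 492 samples of the series and of its 71 mouse samples. Each sample is 1 cell profiled by SC3-seq, in which cDNA is amplified from a single cell and the 3′ ends of the transcripts are read. EpiLCs had been induced from 2i+LIF ESCs for 2 days in N2B27 medium with activin A at 20 ng/ml, bFGF at 12 ng/ml and knockout serum replacement at 1%, so that a single induction day was sampled. The reference cells were the ESC line BVSC R8 kept without feeders in 2i and LIF, where 2i stands for an inhibitor of MEK and an inhibitor of GSK3. Both groups carry the strain label C57BL/6, as do the embryos below. Both were dissociated with TrypLE Select, and all 22 cells trace back to the same line, so that any feature of that line is shared. As a further point of reference, 16 epiblast-like cells of mouse embryos at embryonic day 5.5 (E5.5) are set beside them.

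Pluripotency runs through several states. ESCs in 2i and LIF are held in the naive state of the early epiblast by transcription factors such as Klf4, Esrrb and Tfcp2l1, with ERK signalling blocked and β-catenin stabilised. FGF and activin release this state, and the cells pass through a formative stage, resembling the early postimplantation epiblast, in which Otx2, Pou3f1, Fgf5 and the de novo DNA methyltransferases come on. EpiLCs are known in the mouse as a transient population at this stage from which primordial germ cell-like cells can be induced.

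The labels name no separate cultures or plates, so each group counts as 1 sample, the spread given is that between cells, and no difference below was tested against replicates. Values are RPM, the reads of a gene scaled to a fixed total of mapped reads per cell. A difference is the mean of log2(RPM + 1) over EpiLCs minus that over ESCs, which understates the change of genes at low levels, and a gene is called higher or lower where this difference is at least 2, a 4-fold change. Genes enter where the average of the group means is at least 2 on this scale. Cell numbers only name cells.

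The libraries held 1293019 to 3437587 reads per EpiLC and 1565751 to 3713256 per ESC, as recovered from the steps in the RPM values. Between 9712 and 11448 genes were detected per EpiLC, with a median of 10593, and between 9301 and 10570 per ESC. Cells of a group were more alike than cells of different groups: the median Pearson correlation over genes between cells was 0.865 within EpiLCs, 0.844 within ESCs and 0.824 between them. No cell was a copy of another, the highest correlation among all mouse cells being 0.922.

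One library stood apart. EpiLC 5 had a median correlation of 0.763 with the other EpiLCs and of 0.732 with the ESCs. It held 25 genes at 50 RPM or more that were under 1 RPM in each of the other 21 cells, while no other cell held more than 1 such gene. Among these were genes of neuronal commitment, picked out after the values were seen. Nhlh1, a helix-loop-helix factor of early neurons, stood at 628 RPM and was listed at 0 in the other 21 cells. Neurog2, a proneural factor, stood at 545 RPM, and Six3, a forebrain homeobox gene, at 323 RPM, where no other cell passed 1 RPM. The tubulin gene Tubb3, a neuronal marker, stood at 2147 RPM in EpiLC 5, against at most 197 RPM in any other EpiLC and 106 RPM in any ESC. Pax6, also of the early neural list, stood at 40.3 RPM in EpiLC 5 and did not pass 6.39 RPM in the other 21 cells. The rest of that list did not share this. In EpiLC 5, Sox1, Nes, Hes5, Olig3, Nkx6-2 and Hesx1 were listed at 0 and Zic1 stood at 0.480 RPM. Hes5, Olig3 and Zic1 did not pass 1.28 RPM in any of the 22 cells, and Sox1 was above 0 only in EpiLC 3 and ESC 3. Low values of these genes therefore do not set EpiLC 5 apart. Only 3 genes of the list, Nes, Nkx6-2 and Tubb3, passed the level filter, which left out Neurog2, Six3 and Pax6. The mean log2(RPM + 1) of EpiLC 5 over these 3 was 3.69, near the EpiLC median of 3.71. As this mean averages a high Tubb3 with Nes and Nkx6-2 at 0, it cannot show whether the list was raised in EpiLC 5. The same cell kept Pou5f1, the gene of Oct4, at 720 RPM, the highest of all 22 cells, and Utf1 at 562 RPM, while Sox2 was listed at 0. Its proliferation genes were low, with Ccnb1 at 15.8 RPM and Pcna at 104 RPM, the lowest values of the 22 cells.

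Other cells departed from their group in several genes. EpiLC 10 had Fgf5 and Otx2 listed at 0, and it kept Esrrb at 112 RPM and Tfcp2l1 at 45.2 RPM. EpiLC 3 kept Esrrb at 184 RPM and Sox2 at 305 RPM. ESC 2 had the lowest mean log2(RPM + 1) of the naive genes among ESCs, 4.65 against an ESC median of 7.01. It had Klf4 at 10.2 RPM and Pou3f1 at 97.6 RPM. Its median correlation with the other ESCs, 0.823, was the lowest of that group. The results are given with all cells, and the counts are repeated without EpiLC 5 and ESC 2. Their part in the differences was otherwise not tested.

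**Figure D1:**
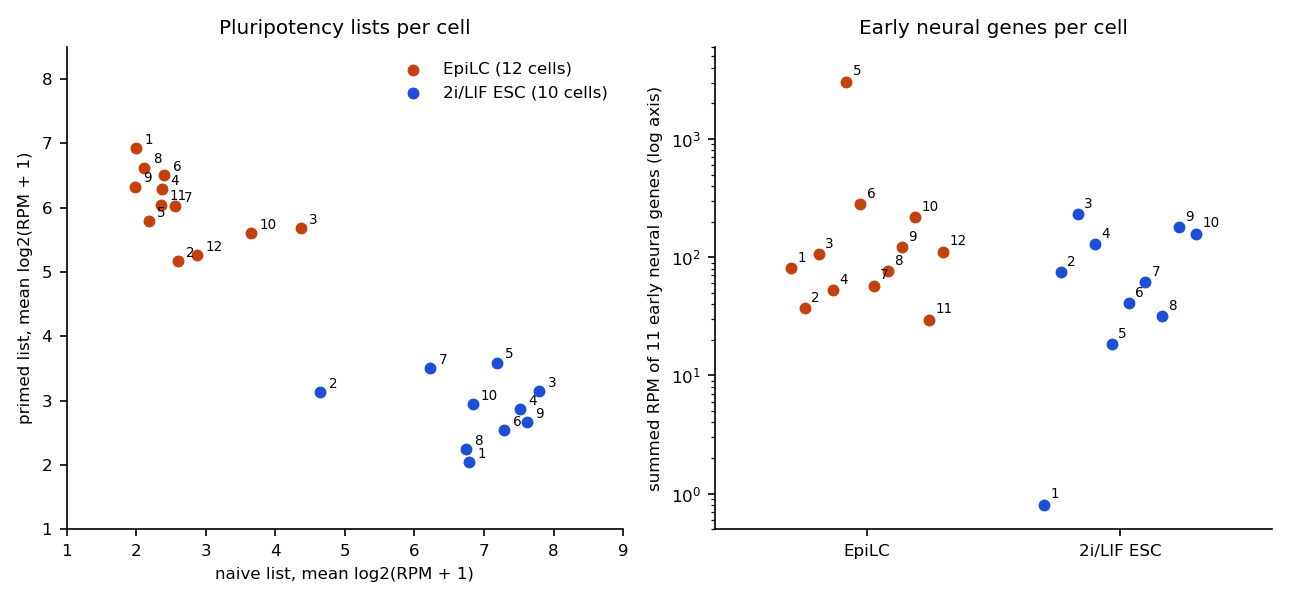
The left panel plots each cell by its mean log2(RPM + 1) over the compared genes of a naive list (x axis) and of a primed list (y axis). The right panel gives the summed RPM of 11 early neural genes per cell on a log axis. EpiLCs lie between 1.98 and 4.36 on the naive axis and ESCs between 4.65 and 7.80. EpiLC 5 stands at 3055 RPM on the right, of which Tubb3 alone made up 2147 RPM.

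The naive and primed genes separated every EpiLC from every ESC. The mean of the naive list ran from 1.98 to 4.36 in EpiLCs and from 4.65 to 7.80 in ESCs. That of the primed list ran from 5.18 to 6.93 in EpiLCs and from 2.04 to 3.59 in ESCs. The cells nearest to each other were EpiLC 3 and ESC 2 on the naive scale. The lists hold genes known for these states and were chosen with earlier results of these data known. Some members, such as Tcl1, passed the level filter only through the group where they are high. The separation therefore describes the cells and is no check of their labels.

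The 5 marker genes followed the labels in nearly all cells. Fgf5 (chr5:98254184-98277030, mm10), a ligand of the postimplantation epiblast, ran from 0 to 444 RPM in EpiLCs with a median of 122 RPM, and from 0 to 0.805 RPM in ESCs. All EpiLCs but EpiLC 10 lay above every ESC, and the difference was 6.18 with that cell and 6.77 without it. Otx2 (chr14:48657677-48673819), a homeobox factor needed to leave the naive state, ran from 0 to 258 RPM in EpiLCs with a median of 102 RPM. In ESCs Otx2 ran from 0 to 35.03 RPM with a median of 0.454 RPM, and the difference was 5.09. The groups overlapped through EpiLC 10, EpiLC 12 at 15.9 RPM and ESC 3, the highest ESC.

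Pou3f1 (chr4:124656807-124660655), a POU-domain factor also called Oct6, was the primed marker present in every EpiLC. It ran from 124 to 555 RPM with a median of 388.5 RPM in EpiLCs, and from 0.935 to 97.6 RPM with a median of 2.49 RPM in ESCs, a difference of 6.00. The groups did not overlap, and ESC 2 alone among the ESCs passed 10 RPM. Klf4 (chr4:55527143-55532466), a naive factor induced by LIF, did not pass 1.603 RPM in any EpiLC and ran from 10.2 to 538 RPM with a median of 250.2 RPM in ESCs. The difference was −6.63, with ESC 2 and ESC 8 the low ESCs. Esrrb (chr12:86361117-86521628), an orphan nuclear receptor, ran from 0 to 184 RPM with a median of 0.746 RPM in EpiLCs and from 194 to 624 RPM with a median of 372 RPM in ESCs. No EpiLC reached the lowest ESC, but EpiLCs 3, 10 and 12 kept 184, 112 and 30.5 RPM, so that the difference of −6.39 averages cells without the transcript and cells with much of it.

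**Figure D2:**
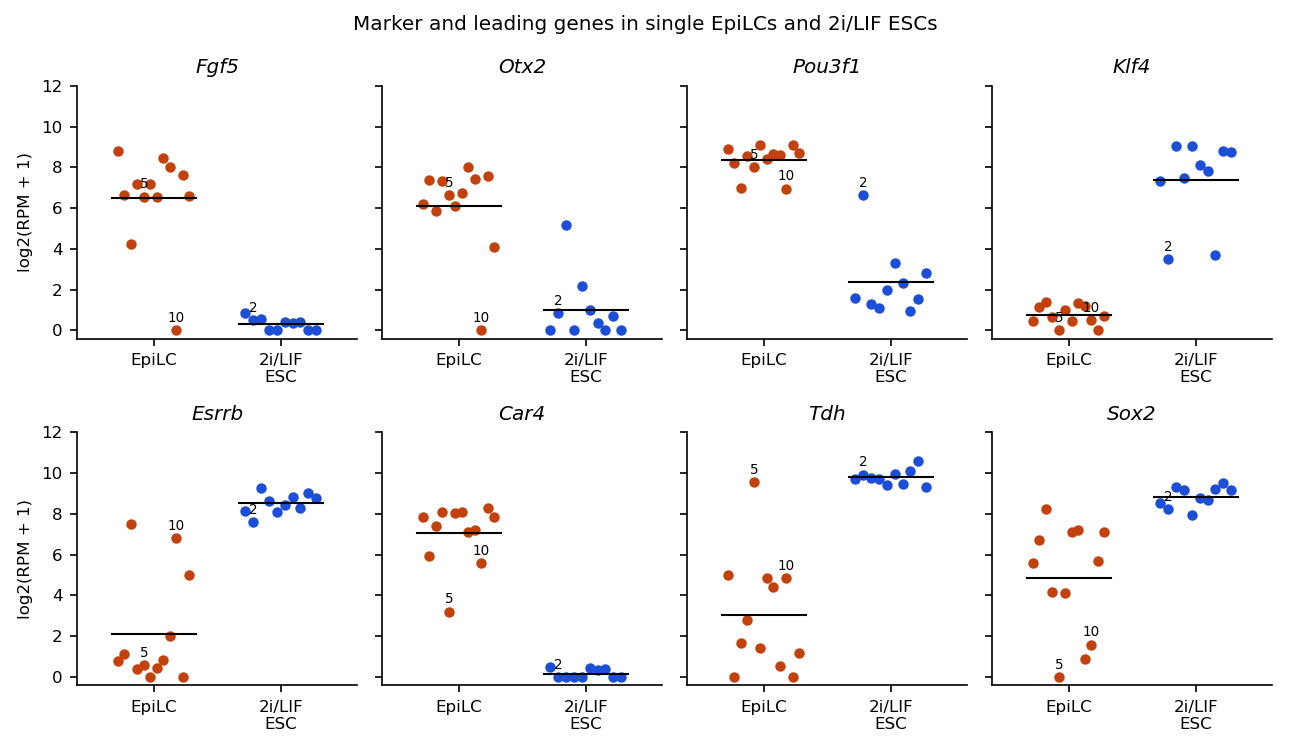
Each point is 1 cell, EpiLCs on the left and 2i/LIF ESCs on the right of each panel, plotted as log2(RPM + 1), and the bar is the group mean. EpiLC 5, EpiLC 10 and ESC 2 carry their numbers. EpiLC 10 lies at 0 for Fgf5 and Otx2, and EpiLC 5 lies among the ESCs for Tdh and at 0 for Sox2.

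Of 8687 genes compared, 704 (8.1%) were at least 2 apart, 376 (4.33%) of them higher in EpiLCs and 328 (3.78%) lower, and the median difference over all of them was 0.11. Without EpiLC 5 and ESC 2 the counts were 417 and 343, of which 325 and 297 genes were shared with the full set. In 18 genes (0.207%) every EpiLC lay above every ESC, and in 21 genes (0.242%) every EpiLC lay below every ESC. Leaving out any cell can only keep or raise these last counts, apart from small changes in which genes pass the filter. They were 33 and 29 without EpiLC 5, 22 and 39 without ESC 2, and 39 and 51 without both. For comparison, they were 27 and 25 without EpiLC 2, 24 and 27 without EpiLC 3, and 21 and 29 without EpiLC 10.

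**Figure D3:**
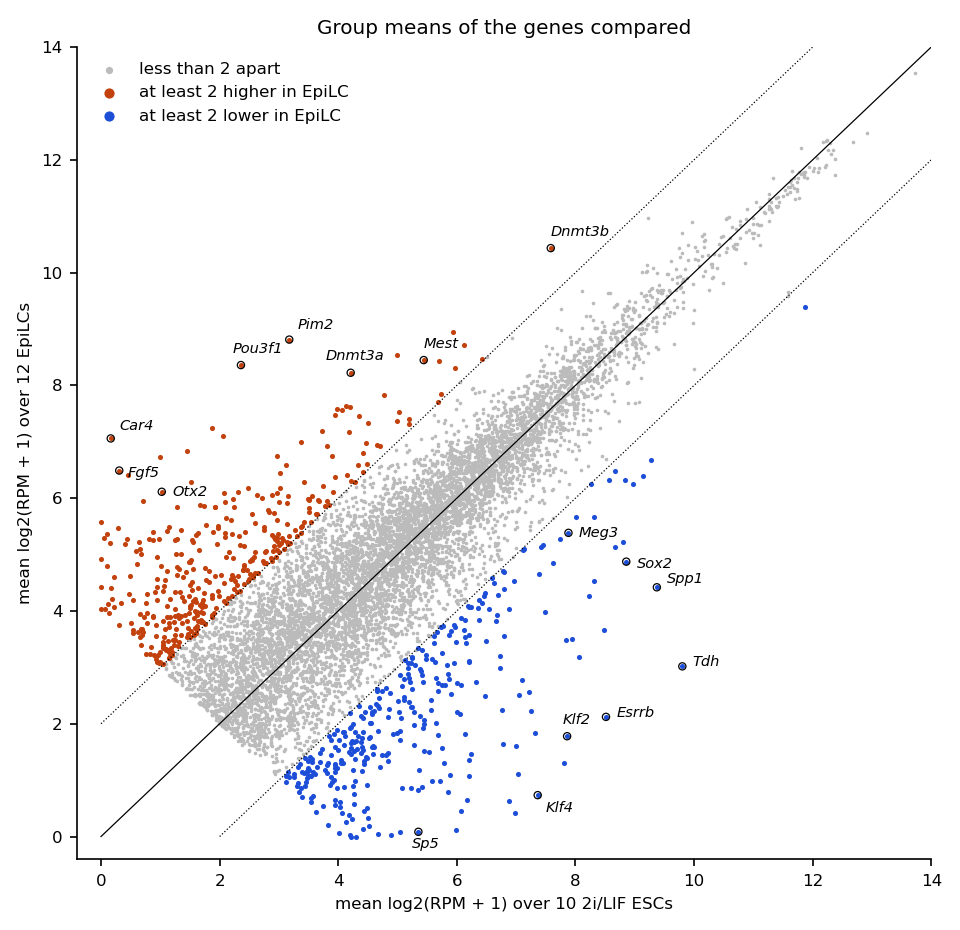
Each point is 1 of the 8687 genes compared, at its mean log2(RPM + 1) over 12 EpiLCs (y axis) and over 10 ESCs (x axis). The solid line marks equal means and the dotted lines a difference of 2; colours mark the 376 genes above and the 328 genes below them. Dnmt3b is the called gene with the highest EpiLC mean, at 10.43.

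The gene furthest above the ESCs was Car4 (chr11:84957786-84966044), a membrane-anchored carbonic anhydrase. It ran from 8.16 to 318 RPM with a median of 199.8 RPM in EpiLCs and did not pass 0.403 RPM in any ESC, a difference of 6.90. Every EpiLC lay above every ESC, EpiLC 5 being the lowest. The cytosolic carbonic anhydrase Car2 was also among the first 12, with a median of 139 RPM in EpiLCs and 0.516 RPM in ESCs and a difference of 5.38, but ESC 2 and ESC 4 lay above the lowest EpiLC. Lrp2, the endocytic receptor megalin, had a median of 128 RPM in EpiLCs and 0.201 RPM in ESCs and a difference of 5.95. EpiLC 5 alone, at 0.480 RPM, made its groups overlap.

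Other leading genes encode transport, kinase and surface proteins. Slc16a3 (chr11:120948480-120960868), a plasma membrane carrier that exports lactate, ran from 24.2 to 522 RPM in EpiLCs and from 0 to 32.2 RPM in ESCs, a difference of 5.38. ESC 5 was the one ESC to pass the lowest EpiLC. Pim2, a serine/threonine kinase that promotes survival, had a median of 566 RPM in EpiLCs and 7.59 RPM in ESCs and a difference of 5.64. EpiLC 10, at 38.4 RPM, lay below ESC 2 and ESC 5, at 55.7 and 66.9 RPM. Tcfl5, a helix-loop-helix factor, differed by 5.75, with ESC 9 just above the lowest EpiLC. Pkdcc, a secreted protein kinase, differed by 5.26 and Itga3, an integrin subunit, by 5.23, and in both every EpiLC lay above every ESC. Sema6a, a transmembrane semaphorin, differed by 5.25, with overlap between EpiLC 2 and ESC 2. Tmem59l was listed at 0 in all 10 ESCs and ran from 3.82 to 198 RPM with a median of 62.9 RPM in EpiLCs, so no fold is given for it.

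The gene furthest below the ESCs was Tdh (chr14:63492347-63509092), threonine dehydrogenase, an enzyme that mouse ESCs are known to depend on. It ran from 0 to 746 RPM with a median of 3.98 RPM in EpiLCs and from 642 to 1549 RPM with a median of 859 RPM in ESCs, a difference of −6.78. The 746 RPM came from EpiLC 5, and no other EpiLC passed 31.2 RPM. Klf2, a further naive Krüppel-like factor, followed the same division, with 697 RPM in EpiLC 5, at most 20.3 RPM in the other EpiLCs and 117 to 473 RPM in ESCs. Its difference was −6.08 with EpiLC 5 and −6.78 without it.

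Several metabolic and surface genes were low in all EpiLCs. Ephx2 (chr14:66084374-66124500), soluble epoxide hydrolase, was listed at 0 in 10 EpiLCs and stood at 0.332 RPM in EpiLC 6 and 22.9 RPM in EpiLC 12, against 45.6 to 360 RPM in ESCs. The difference was −6.56 and the groups did not overlap. Jam2, a junctional adhesion molecule, did not pass 0.429 RPM in any EpiLC and ran from 0.814 to 593 RPM in ESCs, with ESC 2 and ESC 10 low, and differed by −5.87. Gpx2, a glutathione peroxidase, differed by −5.38, Morc1, a gene needed to silence transposons in the mouse male germ line, by −5.49, and Laptm5, a lysosomal membrane protein best known from blood cells, by −5.53. In these 3 genes every EpiLC lay below every ESC. The naive transcription factors Tfcp2l1 and Nr5a2 differed by −6.50 and −5.62, and Tfcp2l1 overlapped through EpiLC 10 and ESC 2.

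**Figure D4:**
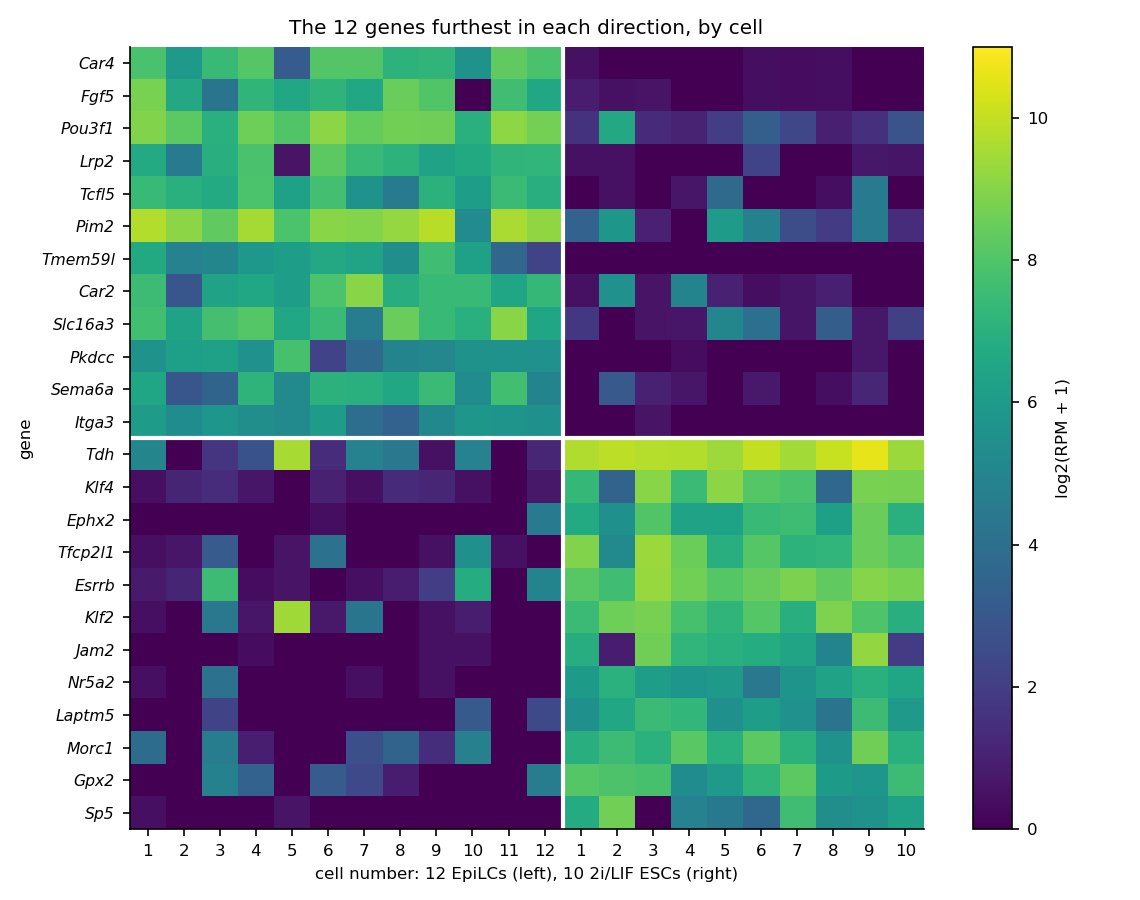
Rows are the 12 genes furthest above (upper block) and the 12 furthest below (lower block) the ESCs, columns are the 12 EpiLCs (left) and the 10 ESCs (right), and colour is log2(RPM + 1). Cells that depart from their block include EpiLC 5 for Tdh, Klf2 and Lrp2, EpiLC 10 for Fgf5 and Tfcp2l1, EpiLCs 3, 10 and 12 for Esrrb, and ESC 2 for Pou3f1, Car2 and Jam2.

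The wider gene groups are given by their counts beside the background of 4.33% higher and 3.78% lower and the median of 0.11 over all genes compared. The naive list had 14 of its 16 compared genes lower and none higher, with a median difference of −4.34. Nanog, a homeobox factor of the naive and core networks, ran from 0.480 to 60.2 RPM in EpiLCs and from 15.5 to 815 RPM in ESCs, a difference of −4.35. The others lower were Tcl1, Nr0b1, Tbx3, Klf5, Pecam1, Sox15, Dppa3 and Zfp42 beside the naive factors above. Dppa3, also called stella, whose reporter the BVSC line carries, differed by −3.02. Dppa5a, with a median of 809 RPM in EpiLCs and 3665 RPM in ESCs, lay just inside the threshold at −1.996 and was not called, and Fgf4 differed by −0.48. Prdm14 and Gbx2 were under the level filter.

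The primed list had 11 of 17 compared genes higher and none lower, with a median of 2.85. Without EpiLC 5 and ESC 2 it had 13, Foxd3 and Lin28b being added. Sox3, a SoxB1 factor of the epiblast and neural plate, ran from 8.04 to 116 RPM in EpiLCs and did not pass 0.987 RPM in any ESC, a difference of 5.05. Sox4 differed by 5.04 and likewise did not overlap. Sall2 differed by 4.47, Zic2 by 2.15 and Zic5 by 2.08. The 6 others compared, among them Sox11, Cd24a and Etv4, were less than 2 apart.

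The core pluripotency genes differed less. Of 13 compared, none was higher and Sox2 was lower, and the median was 0.56. Pou5f1 ran from 143 to 720 RPM with a median of 302 RPM in EpiLCs and from 190 to 442 RPM with a median of 266 RPM in ESCs, a difference of 0.04. Sox2 (chr3:34650405-34652461), its usual partner on DNA, ran from 0 to 305 RPM with a median of 48.7 RPM in EpiLCs and from 249 to 722 RPM with a median of 502 RPM in ESCs, a difference of −3.98. EpiLC 3 alone lay within the range of the ESCs, and EpiLCs 5, 9 and 10 were at 2.00 RPM or less. Utf1, a chromatin-bound factor of pluripotent cells, lay above every ESC in every EpiLC, with medians of 822 RPM in EpiLCs and 283 RPM in ESCs, but its difference of 1.57 was under the threshold.

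Of 10 compared genes of DNA methylation, 2 were higher and 1 lower, with a median of 0.36. Dnmt3b (chr2:153649450-153687730), a de novo methyltransferase, ran from 174 to 3336 RPM with a median of 1674 RPM in EpiLCs and from 41.7 to 491 RPM with a median of 221 RPM in ESCs, a difference of 2.85. EpiLCs 5 and 10, at 174 and 418 RPM, lay among the ESCs and the other 10 EpiLCs above all of them. Dnmt3a, the other de novo enzyme, differed by 4.01, with medians of 343 RPM in EpiLCs and 31.2 RPM in ESCs. Their cofactor Dnmt3l differed by 0.84 and the maintenance enzyme Dnmt1 by −0.43. Zfp57, a zinc finger protein that keeps methylation at imprinted loci, was lower by a difference of −2.26. Of 24 chromatin modifiers, Cbx2, a Polycomb subunit, was higher by 3.43 and Kdm3a, a histone H3K9 demethylase, lower at −2.17, and the median was −0.15.

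FGF and ERK signalling had 7 of 16 compared genes higher, none lower and a median of 1.57. Among ligands, Fgf15 was listed at 0 in all 10 ESCs and ran from 0 to 137 RPM with a median of 24.7 RPM in EpiLCs, 3 of which were also at 0. Fgf4, the main ligand of naive cells, differed by −0.48 and the receptor Fgfr1 by 0.46. Among the 11 compared genes of feedback and response, Dusp4, Dusp6, Spry2, Spry4 and Myc were higher, and Spry1, Spred1, Spred2, Etv4, Etv5 and Egr1, between −0.25 and 1.44, were not called. The phosphatase gene Dusp6 had medians of 166 RPM in EpiLCs and 16.05 RPM in ESCs and differed by 3.48, Dusp4 differed by 4.12, Spry4 by 2.41 and Spry2 by 2.12. Dusp4 ran from 1.20 to 1421 RPM in EpiLCs, the highest value being that of EpiLC 5. Myc, a growth regulator downstream of several pathways, differed by 3.70 with a median of 99.0 RPM in EpiLCs and 6.42 RPM in ESCs. Without EpiLC 5 and ESC 2, 6 of 15 compared genes were higher, with a median of 1.85.

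The activin and NODAL group had 2 of 15 compared genes higher and none lower, with a median of 0.79. Lefty1, a secreted inhibitor of NODAL, ran from 0 to 1768 RPM with a median of 169 RPM in EpiLCs and from 0 to 789 RPM with a median of 20.0 RPM in ESCs. Its spread from cell to cell was wide in both groups, and they overlapped over the whole range of the ESCs, with a difference of 2.47. Skil, a transcriptional repressor fed by this pathway, differed by 2.22. Nodal itself differed by 0.57 and the co-receptor gene Tdgf1 by 0.90.

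Of 14 compared WNT genes 2 were higher and 4 lower, with a median of −0.68. The other 8, among them the gene of β-catenin, Ctnnb1, and its partners Lef1, Tcf7, Tcf7l1 and Tcf7l2, were less than 2 apart. The 4 lower genes are known targets of β-catenin. Of these, Sp5, Cdx1 and Notum, near 0 in EpiLCs, passed the level filter only through the ESCs, so that they could enter only with a large difference. Nkd1, Dkk1 and T of the same list were under the filter. Sp5 did not pass 0.480 RPM in any EpiLC and ran from 0 to 409 RPM with a median of 45.9 RPM in ESCs, a difference of −5.27, with ESC 3 the one ESC at 0. Cdx1, a caudal homeobox gene, was at 0.332 RPM in EpiLC 6 and listed at 0 in the other EpiLCs, against a median of 58.9 RPM in ESCs, and differed by −4.85, with ESCs 2 and 8 also at 0. Notum, a secreted enzyme that inactivates WNT ligands, was listed at 0 in all 12 EpiLCs and had a median of 36.9 RPM in ESCs. Axin2 differed by −2.69 and varied from 0 to 261 RPM among ESCs. The genes higher in EpiLCs were Sfrp2, a secreted WNT-binding protein, by 3.50 and the receptor Fzd2 by 3.17. Of 5 compared BMP genes none reached 2, the furthest being the receptor Bmpr1a at 1.65.

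LIF and JAK-STAT genes had 5 of 11 compared lower and none higher, with a median of −1.91, which was 0.44 with the level filter raised to 4. Stat3, the factor LIF activates, had medians of 5.22 RPM in EpiLCs and 32.2 RPM in ESCs and differed by −2.96, with overlap. The receptor genes were lower as well, Lifr by a difference of −2.31 and Il6st, which encodes its partner gp130, by −2.26. The remaining 2 are Klf4 and Tfcp2l1, which also belong to the naive list.

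Few genes of energy metabolism reached a difference of 2. Of 21 glycolytic genes Slc16a3 alone was higher, none was lower, and the median was 0.36. Ldha, which makes lactate, had medians of 1793 RPM in EpiLCs and 660.0 RPM in ESCs and differed by 1.74, and the glucose carrier Slc2a1 differed by 1.92. Of 19 genes of oxidative phosphorylation none reached 2, and the median was −0.39. Cox6b2, a cytochrome oxidase subunit known from testis, was the furthest of these at −1.69. Of 17 genes of cholesterol synthesis Hmgcs1, which makes the precursor of mevalonate, was higher by 2.04, and the median was 0.55. In amino acid supply and the integrated stress response, Chac1, a glutathione-degrading enzyme, was higher by 2.96 and Tdh lower among 20 genes compared, with a median of 0.15.

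Lysosome and autophagy genes had 3 of 14 compared lower and none higher, with a median of −0.64. Tfeb, a transcription factor that drives lysosome genes, was listed at 0 in 10 EpiLCs and stood at 7.23 and 12.5 RPM in EpiLCs 7 and 5, against 0.935 to 69.1 RPM in ESCs. It differed by −3.39. Lamp2, a lysosomal membrane protein, differed by −3.10, with overlap.

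Among 18 compared cell cycle genes 1 was higher and 1 lower, both of them inhibitors of cyclin-dependent kinases. Cdkn1c, an imprinted gene that encodes p57, had medians of 69.4 RPM in EpiLCs and 2.42 RPM in ESCs and differed by 3.68. Cdkn1a, which encodes p21, had medians of 4.01 RPM in EpiLCs and 162 RPM in ESCs and differed by −4.32, with EpiLC 5, at 415 RPM, above every ESC and EpiLCs 7 and 12 within their range. The median of the list was 0.09. Of 14 apoptosis genes 2 were higher, the BH3-only genes Bcl2l11 by 3.51 and Pmaip1 by 3.50, none was lower, and the median was 0.45, or −0.21 with the level filter raised to 4. Bcl2l11, which encodes Bim, ran from 10.2 to 117 RPM in EpiLCs and from 0 to 30.7 RPM in ESCs.

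Of 19 compared genes of adhesion and extracellular matrix, 7 were lower and 3 higher, with a median of 0.35. Spp1 (chr5:104435118-104441050), the matrix glycoprotein osteopontin, ran from 0 to 135 RPM in EpiLCs and from 168 to 1115 RPM in ESCs, a difference of −4.95 without overlap. The basement membrane genes Nid1, Lama1 and Sparc differed by −3.89, −3.57 and −2.75, fibronectin, Fn1, by −2.60, and the intermediate filament gene Vim was also lower. Lama1 was listed at 0 in 9 EpiLCs and stood at 358 RPM in EpiLC 5, and without EpiLC 5 and ESC 2 its difference was −4.42. The claudins divided, with Cldn6 higher by 3.12 and Cldn7 by 2.48, and Cldn4 lower at −2.61. Podxl, a sialomucin of the apical surface, was higher by 2.37 with all cells and differed by 1.87 without EpiLC 5 and ESC 2.

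Of 18 compared genes of the actin cytoskeleton and simple keratins, 6 were higher and none lower, with a median of 0.80. Cald1, the actin-binding protein caldesmon, ran from 12.9 to 202 RPM with a median of 64.6 RPM in EpiLCs and from 0 to 119.6 RPM with a median of 0.581 RPM in ESCs, a difference of 4.21. The high ESC was ESC 2, with ESC 3 at 38.98 RPM. Krt18 differed by 3.51 and its partner Krt8 by 2.38, the calponin Cnn2 by 3.16, and the tropomyosins Tpm2 and Tpm1 by 2.99 and 2.39.

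Without EpiLC 5 and ESC 2 the counts of most lists were the same or moved by 1 gene. Naive genes lower were then 15 of 16, with Dppa5a, and LIF and JAK-STAT genes lower 6 of 11, with the kinase gene Pim3. Glycolytic genes higher were 2 of 21, with Slc2a1. Lysosome genes lower were 4 of 14, with the cathepsin gene Ctsb. Bmpr1a, the histone methyltransferase gene Ehmt1 and the neural filament gene Nes passed 2, Podxl and Krt8 did not, and Myl9, a myosin light chain, entered the actin list as higher. The median of the imprinted genes was then −0.12.

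**Figure D5:**
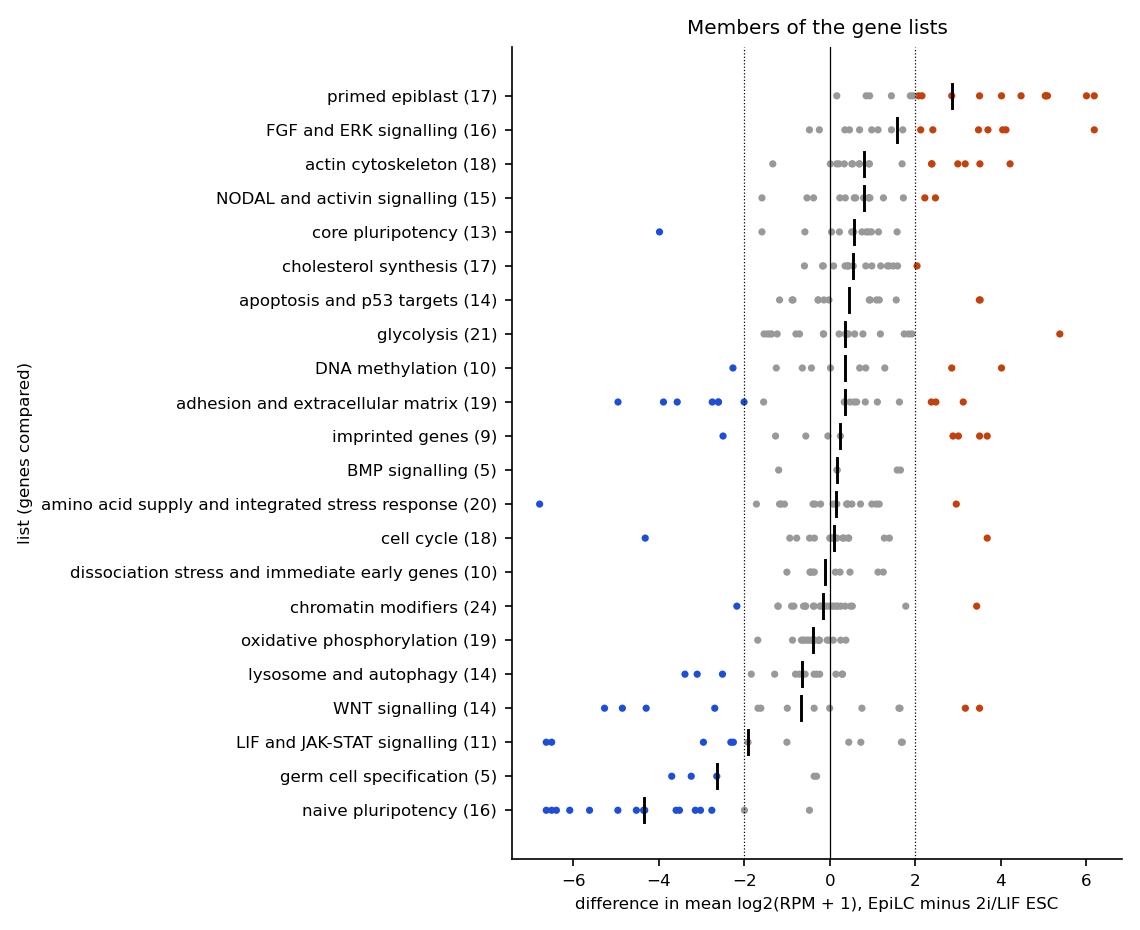
Each point is a compared gene of a list, at its difference in mean log2(RPM + 1), EpiLC minus ESC, and the black bar is the list's median. Dotted lines mark −2 and 2. Lists with at least 5 genes compared are ordered by their median, from 2.85 for the primed list to −4.34 for the naive list.

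Of 5 compared genes of germ cell specification 3 were lower. Tfap2c, a factor of germ cell specification, was listed at 0 in 9 EpiLCs and stood at 41.6 RPM in EpiLC 10, against 0 to 193 RPM with a median of 58.9 RPM in ESCs, a difference of −3.70. Kit, the receptor for stem cell factor, differed by −3.24. Ifitm3, also called fragilis, had medians of 64.4 RPM in EpiLCs and 327 RPM in ESCs and differed by −2.64; the sources used here do not give how reads were shared among its close family members. Prdm1, whose reporter the BVSC line also carries, was under the level filter, with medians of 0.166 RPM in EpiLCs and 0.815 RPM in ESCs. Of 19 germline genes known to be silenced by methylation only 3 passed the filter, and Tex19.1 was lower at −2.36. The genes of the 2-cell-like state were nearly absent, with 10 of 12 at a mean under 1 RPM in both groups and only Eif1a compared, at −0.17.

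Imprinted genes did not share a direction. Of 9 compared, 4 were higher and 1 lower, with a median of 0.25. The paternally expressed Mest had medians of 368 RPM in EpiLCs and 47.2 RPM in ESCs and differed by 3.01, with EpiLC 4 the highest cell at 2480 RPM. Ndn, also expressed from the paternal copy, differed by 2.88, Grb10 by 3.50 and the maternally expressed Cdkn1c by 3.68. Meg3, a maternally expressed long non-coding RNA, differed by −2.50, and its EpiLCs divided into cells at or under 1.202 RPM, 4 in number, and cells at 141 to 497 RPM, 8 in number, while all ESCs lay between 67.6 and 666 RPM.

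Markers of other cell types were measured in lists of their own. Of 14 gastrulation genes 9 had a mean under 1 RPM in both groups, the summed level ran from 0 to 73.5 RPM in EpiLCs and from 0.623 to 121 RPM in ESCs, and Eomes, the one gene compared, differed by 0.37. Of 11 trophectoderm genes 7 were under 1 RPM in both, with sums of 0 to 124 RPM in EpiLCs and 0.334 to 149 RPM in ESCs. Of 14 genes of primitive and visceral endoderm 9 were under 1 RPM in both, and the sums ran from 0 to 1627 RPM in EpiLCs and from 0.269 to 684 RPM in ESCs. The high sums came from Rhox5, an X-linked homeobox gene, at 1615 RPM in EpiLC 8, 434 RPM in EpiLC 11 and 667 RPM in ESC 6. The early neural list summed to 29.6 to 3055 RPM in EpiLCs, with a median of 93.5 RPM, and to 0.805 to 233 RPM in ESCs, with a median of 67.99 RPM. None of its 3 compared genes reached 2 with all cells. Of 12 fibroblast genes 5 were under 1 RPM in both groups, the matrix protease gene Mmp2 was higher by 4.01 and Fbln1 lower at −2.55, and the sums ran from 24.1 to 797 RPM in EpiLCs and from 18.7 to 96.0 RPM in ESCs. The 9 blood genes in the table summed to at most 9.55 RPM in EpiLCs and to 17.8 to 211 RPM in ESCs, where Laptm5 made up most of the sum, and 7 of them were under 1 RPM in both. None of the 10 compared genes of dissociation stress reached 2, the furthest being Zfp36 at 1.25.

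Levels in the E5.5 epiblast-like cells, 16 of 25 E5.5 cells, are given for the genes above as means of log2(RPM + 1). These cells were chosen by clustering the embryo cells, and pluripotency and epiblast genes, Fgf5, Pou3f1 and Sox2 among them, took part in that choice, as did Sp5 as a gastrulation marker. They differ from the cultured cells in the code of their sample titles and in how they were dissociated, so that state and library cannot be told apart, and no test was made. Fgf5 averaged 6.49 in EpiLCs, 0.31 in ESCs and 6.43 in E5.5 cells. Car4 averaged 7.06 in EpiLCs, 0.16 in ESCs and 7.78 in E5.5 cells, and Pim2 averaged 8.81 in EpiLCs, 3.17 in ESCs and 9.84 in E5.5 cells. For these genes the embryonic cells had the high level of EpiLCs.

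The naive genes were low in the embryonic cells as well. Klf4 averaged 0.73 in EpiLCs, 7.36 in ESCs and 1.35 in E5.5 cells, and Esrrb 2.12 in EpiLCs, 8.51 in ESCs and 0.32 in E5.5 cells. Tdh averaged 3.02 in EpiLCs, 9.80 in ESCs and 3.18 in E5.5 cells. Sp5 averaged 0.08 in EpiLCs, 5.35 in ESCs and 0.02 in E5.5 cells.

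Sox2 averaged 4.87 in EpiLCs, 8.86 in ESCs and 6.59 in E5.5 cells, so that the embryonic cells lay between the cultured groups, nearer the EpiLCs. For Meg3, Kdm3a, Mest, Hmgcs1 and Cnn2 the embryonic cells stood nearer the ESCs. Meg3 averaged 5.38 in EpiLCs, 7.88 in ESCs and 8.20 in E5.5 cells, and Kdm3a 4.20 in EpiLCs, 6.38 in ESCs and 6.01 in E5.5 cells. The EpiLC mean of Meg3 averages cells at 141 to 497 RPM with cells at or under 1.202 RPM. The former lay within the range of the E5.5 cells, 120 to 820 RPM. Mest, high in EpiLCs at 8.45, averaged 5.44 in ESCs and 5.26 in E5.5 cells, and Hmgcs1 averaged 8.47 in EpiLCs, 6.43 in ESCs and 6.32 in E5.5 cells. Cnn2 averaged 5.71 in EpiLCs, 2.55 in ESCs and 1.499 in E5.5 cells. Dnmt3l, the cofactor that differed little between the cultured groups, averaged 3.91 in EpiLCs, 3.07 in ESCs and 8.32 in E5.5 cells.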

How the data were processed

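Per the labels, single cells were profiled by SC3-seq; the submitters' processing notes list cutadapt 1.3, TopHat 1.4.1, Cufflinks 2.2.0 and the mm10 build, with no role given. The authors deposited RPM values per gene and cell for 26219 genes. Of 108 value columns 37 matched no sample here and were not used. In each cell at least 99.7% of values up to 500 reads lay within 0.1 read of a whole multiple of the most common value, taken as 1 read, which gave the read totals. No count model was used and no test was made, since the labels name no cultures and each group is 1 sample. Differences are between means of log2(RPM + 1). Genes with an average of group means under 2 were left out. The text names the 12 largest differences in each direction (predicted and clone names left out), the 5 markers and up to 4 genes per list and direction; other genes were named after their values were seen. Members and lists were chosen with earlier results of these data known. Of 497 list entries 494 were matched, 6 of them through Entrez IDs in GENCODE M21, which also gave the positions. Embryo cells were clustered with scanpy 1.11.5 (2000 variable genes, 8 components, Leiden resolution 1). Alternatives covered the pseudocount, filter, scaling, thinning to 1293019 reads, averaging, threshold and each cell left out. Some list members are not reported here.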

Additional observations from a re-analysis of the deposited data

Results flagged for a closer look

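In the group of 10 ESCs, single cells lay far from the rest by Dixon's criterion in 9 of 30 checked values; chance alone flags about 1 group in 20, and the 12 EpiLCs are too many for the criterion. On the log2(RPM + 1) scale, ESC 2 was high for Pou3f1 at 6.62 and for Sema6a at 3.06, and its mean of the naive list was low at 4.65. ESC 6 was high for Lrp2 at 2.22 and low for Nr5a2 at 4.39. ESC 3 was high for Otx2 at 5.17 and for Itga3 at 0.58, and ESC 9 for Pkdcc at 0.71. The values for Itga3 and Pkdcc lie under 1 RPM, at the level of 1 read. ESC 1 had the fewest detected genes, 9301.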

How the results depend on the processing

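With 1 sample per condition and no replicate in culture, the values describe these cells, and 12 and 10 cells limit their precision. The main counts of 376 higher and 328 lower genes became 762 and 528 with a pseudocount of 0.1 RPM, 71 and 74 with one of 10 RPM, 112 and 120 with a filter of 4 and 1351 and 1000 with a threshold of 1. They were 533 and 415 with a filter of 1, 308 and 372 after quantile normalization and 381 and 335 after thinning. With log2 of the mean RPM they were 423 and 348, but only 206 and 208 genes were shared with the main sets; the cause was not tested. Leaving out 1 cell gave 346 to 406 higher and 324 to 356 lower genes. Genes with every EpiLC above or below every ESC, 18 and 21, became 8 and 11 with a filter of 4, and 39 and 51 without EpiLC 5 and ESC 2, a choice made after seeing the data. Leaving out 1 cell, which can hardly lower these counts, gave 18 to 33 and 21 to 39, the highest being 33 without EpiLC 5 and 39 without ESC 2. No named gene at least 2 apart changed sign; Eif1a and Rhox5, not called, did. Of 30 list medians 10 changed sign under at least 1 alternative, all of them within 2 of 0. The LIF and apoptosis medians did so with a filter of 4 (0.44 and −0.21), and the imprinted median did so under several, being −0.23 without ESC 2. In all, 45 gene and 18 list values moved by more than the spread between cells, all under settings other than leaving out a cell. Leaving out 1 of 10 or 12 cells can shift a mean by only part of that spread. That measure therefore cannot show how far single cells matter. At resolution 1.5 the same number of E5.5 cells, 16, was epiblast-like. No paired analysis was possible because the numbers only name cells in order of deposit, which pairs no EpiLC with any ESC, and no test was made.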

Other observations

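Further genes that differed between the groups were named after their values were seen, all but Tet2 from outside the lists. Among them only Cd9 and Mdk had no overlap between the groups. Mt2, a metal-binding metallothionein, ran from 220.4 to 2620 RPM with a median of 583 RPM in EpiLCs and from 2119.8 to 7150 RPM with a median of 3534 RPM in ESCs, a difference of −2.48. Cd9, a tetraspanin of the cell surface, ran from 8.42 to 136 RPM in EpiLCs and from 256 to 657 RPM in ESCs, without overlap and with a difference of −3.54. Trh, the precursor of thyrotropin-releasing hormone, had medians of 11.8 RPM in EpiLCs and 454 RPM in ESCs, and ESC 2 stood at 0.814 RPM. Stmn2, a microtubule regulator known from neurons, differed by −3.58, with medians of 74.1 RPM in EpiLCs and 512 RPM in ESCs, so that a gene best known from neurons was the higher in naive cells.

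In the other direction, Mdk, the secreted growth factor midkine, ran from 217 to 777 RPM in EpiLCs and from 6.65 to 169 RPM in ESCs, without overlap and with a difference of 3.55. Dut, which keeps uracil out of DNA, had medians of 542 RPM in EpiLCs and 74.2 RPM in ESCs. Tet2, a DNA demethylation enzyme, was under the level filter but did not pass 0.773 RPM in any EpiLC, against 0 to 54.9 RPM with a median of 10.98 RPM in ESCs.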
